A study of Mus musculus with 82 samples.

Results

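The comparison was between medial and lateral tissue hexagons on the side of the mouse suprachiasmatic nucleus (SCN) where Vip transcript is most abundant. Members were the hexagons with an anterior-posterior coordinate of 191, 239, 287 or 335 and a dorsal-ventral coordinate of 740 or more. Of these, 10 had a medial-lateral coordinate below 1300 and are called medial, 6 had a coordinate of 1390 or more and are called lateral, and 2 lay between and were left out. The 16 hexagons compared were part of 82 in the study. All came from C57BL/6 mice of 8 weeks, and the labels name no treatment. Sections were stained with cresyl violet, hexagons of at most 40 µm radius were cut by laser capture on a grid and not by a marker, and each was made into a library by Smart-seq2, which copies whole transcripts from minute amounts of RNA, and Tn5 tagmentation. The labels give the coordinates without a unit or the sense of each axis, and give neither the animal of a hexagon nor its sex or the hour of sampling. Hexagons could come from the same mouse, so every p-value over hexagons is too small and measures only their spread. The names medial and lateral follow the coordinate and were not checked against anatomy.

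The SCN is the central circadian pacemaker of mammals. Its ventral core, which receives input from the retina, holds neurons that make vasoactive intestinal peptide (VIP), and its dorsal and medial shell holds neurons that make vasopressin. Most SCN neurons also release GABA. VIP acts on the receptor encoded by Vipr2 and keeps the cellular clocks of the nucleus in step.

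The upstream sequences of 3 peptide genes are shown because their transcripts are the ones followed across the hexagons: the core peptide gene Vip, the shell peptide gene Avp, and Prok2, which encodes a secreted output signal of the clock. Each is the 250 bases before the annotated start, written 5′ to 3′ on the gene's strand, from RefSeq on GRCm38.p6. Capitals in Vip mark TGACGT, the core of the cAMP response element, and capitals in Prok2 and Avp mark CACGTG, the E-box letters bound by CLOCK and BMAL1. The matches begin 79, 135 and 139 bases upstream in Vip, Prok2 and Avp. On either strand, TGACGT is present in 6.47% and CACGTG in 6.02% of the 32851 upstream windows of this length in the table, with CACGTG reading the same on both strands. A match is a description of the letters and not of binding.
Vip, chr10:5638968-5639217, plus strand: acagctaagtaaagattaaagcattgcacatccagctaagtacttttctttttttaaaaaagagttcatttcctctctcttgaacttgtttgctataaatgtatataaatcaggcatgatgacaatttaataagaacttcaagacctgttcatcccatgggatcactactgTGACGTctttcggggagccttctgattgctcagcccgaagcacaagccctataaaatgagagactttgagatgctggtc
Prok2, chr6:99726393-99726642, minus strand: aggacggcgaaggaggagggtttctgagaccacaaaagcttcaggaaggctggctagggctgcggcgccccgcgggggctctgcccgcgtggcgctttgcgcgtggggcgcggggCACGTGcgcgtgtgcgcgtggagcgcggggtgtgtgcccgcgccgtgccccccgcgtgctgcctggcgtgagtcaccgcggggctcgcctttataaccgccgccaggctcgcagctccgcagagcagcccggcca
Avp, chr2:130582589-130582838, minus strand: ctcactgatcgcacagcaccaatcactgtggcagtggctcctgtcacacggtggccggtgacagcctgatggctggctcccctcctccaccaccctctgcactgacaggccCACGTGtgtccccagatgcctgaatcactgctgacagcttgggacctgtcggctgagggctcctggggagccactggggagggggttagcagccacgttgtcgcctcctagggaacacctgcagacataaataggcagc

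Library totals in the 16 hexagons ran from 158181 to 2506639 counts and genes detected from 8121 to 12656. Medial hexagons had 11626 ± 666 genes detected and lateral hexagons 10483 ± 1361 (SD, n = 10 and 6). With sides permuted within sections, the exact two-sided p was 0.0167, or 0.0438 after Benjamini-Hochberg adjustment over 7 measures tested this way. The difference in totals did not pass that test (exact permutation p = 0.521). Mitochondrially encoded transcripts took 1.39 ± 0.17% of counts in medial and 1.66 ± 0.42% in lateral hexagons (exact permutation p = 0.00833, adjusted 0.0438). Lateral replicate 6, in section 335 at 1396, stood apart with the 8121 genes and 2.37% mitochondrial transcripts. Medial replicate 8 and lateral replicate 4 were shallow, at 176618 and 158181 counts. The part that these differences play in the results below was not tested, and values without lateral replicate 6 and with genes detected as a covariate are given for the gene lists below.

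Vip was higher in most medial hexagons than in most lateral ones, with overlap. Vip transcript ran from 953 to 17270 CPM (counts scaled to the library's size) in medial hexagons (median 7111) and from 77.0 to 9379 CPM in lateral ones (median 1120). The lateral values were 9379, 1623, 162, 77.0, 1073 and 1166 CPM in replicates 1 to 6. Thus 5 of 6 lateral hexagons lay below 9 of 10 medial ones, and lateral replicate 1, at 1406 in section 191, lay within the medial range. In the whole series, with scaling over all 82 hexagons, the median was 7047 CPM in the medial hexagons and 1074 CPM in the lateral ones. It was 214 CPM in the 24 medial and 8.83 CPM in the 7 lateral hexagons of lower dorsal-ventral coordinate in the same sections. The 2 hexagons left out between the sides, at 1320 and 1359, had 9373 and 11610 CPM. The hexagon just inside the dorsal-ventral limit was lateral replicate 2 at 743, and those just outside were at 737 and 739. On the scaling over all 82 hexagons these had 1602, 5947 and 4582 CPM of Vip. Those at 737 and 739 held the most Vip of the lower medial and lower lateral hexagons.

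**Figure D1:**
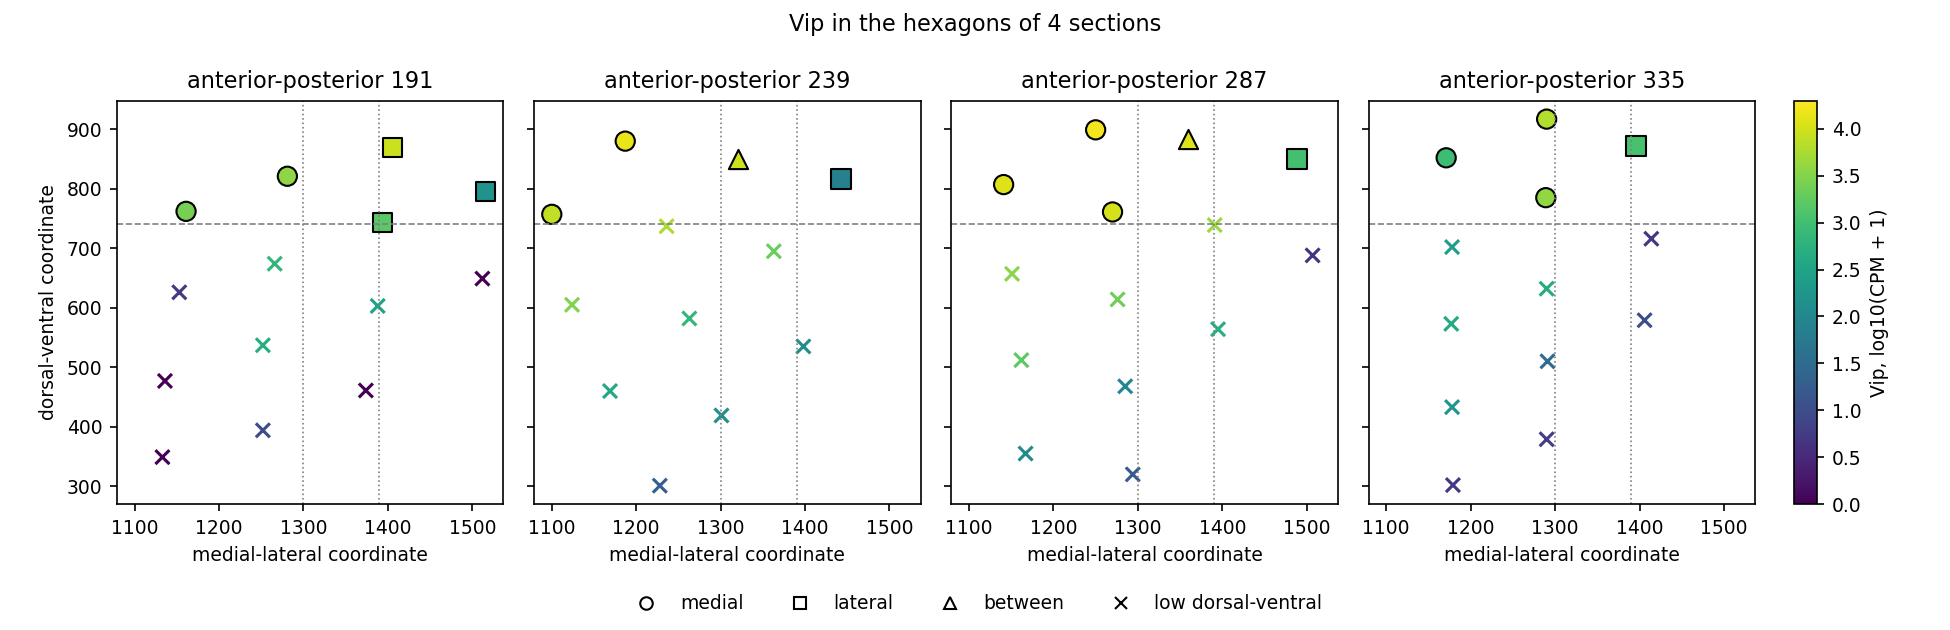
Position of the hexagons of 4 sections by medial-lateral and dorsal-ventral coordinate (no unit given), coloured by Vip as log10(CPM + 1). Circles are the 10 medial, squares the 6 lateral and triangles the 2 hexagons between, dashed and dotted lines are the limits of the rule; the lateral square at 1406 in section 191 is coloured like the medial circles.

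The size of the medial to lateral difference in Vip, and its p-value, depended on the fit, its covariates and the hexagons included. On log2(CPM + 1), medial hexagons averaged 12.55 ± 1.31 and lateral hexagons 9.63 ± 2.48 (SD, n = 10 and 6), a within-section difference of 2.93 with an exact permutation p of 0.0188, or 0.0438 adjusted over the 7 measures. The medial mean was higher in 4 of 4 sections but in 3 of 5 library sets, a set being the letter that opens the description label. In sections 239 and 287 the medial hexagons were in another set than the lateral one. In sets D, E and F the sides came from different sections. Counts over sections and over sets are thus not separate checks, here and below. Sections 239, 287 and 335 each held 1 lateral hexagon, replicates 4, 5 and 6. A count over sections therefore mostly sets medial means against 1 library. In edgeR's quasi-likelihood fit over all genes, with section as a factor, the log2 fold change was 2.00 (SE 1.29, adjusted p = 0.785). It was 0.63 in a fit over all 82 hexagons and 2.76 without lateral replicate 1. With section and library set together it was 0.19. Both sides share a section and a set only in section 191, set C, and section 335, set G. That fit therefore compares the sides through medial replicates 1, 2, 9 and 10 and lateral replicates 1, 2 and 6 alone, here and below. When every gene with a count was tested, Vip was among the 56 genes called, with a log2 fold change of 2.03 (SE 0.14, edgeR adjusted p = 3.34e-46). That SE is far below the 1.29 of the filtered fit and the lateral SD of 2.48. This p-value therefore does not measure the spread of Vip between hexagons. Hexagons that share an animal would make these p-values too small. In these bulk samples, fewer cells of a type and less RNA per cell cannot be told apart.

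Calcr and Mbp overlapped between the sides. Calcr, the calcitonin receptor, averaged 84.6 ± 86.0 CPM in medial and 36.8 ± 44.9 CPM in lateral hexagons (exact permutation p = 0.296). It was at 0 in 2 medial and 2 lateral hexagons, so the ranges overlapped fully. Mbp, a myelin protein gene of oligodendrocytes, averaged 1301 ± 881 CPM in medial and 2284 ± 2298 CPM in lateral hexagons (exact permutation p = 0.467). Lateral replicate 1 had both the highest lateral Vip and the highest Mbp of all 16, 6484 CPM. The log2 fold change of Mbp, medial over lateral, was -0.81 (edgeR quasi-likelihood adjusted p = 0.885) and was 0.23 without that hexagon's section, 191.

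Among the other peptide genes, Nms and Prok2 had the higher medians in medial hexagons, and Avp and Cck in lateral ones; none passed the test over all genes. Nms, which encodes neuromedin S and marks a large group of SCN neurons, ran from 67.6 to 504 CPM in medial hexagons (median 184) and from 29.7 to 162 CPM in lateral ones (median 79.5). The ranges overlapped, with 8 of 10 medial hexagons above every lateral one. Its log2 fold change was 1.27 (SE 0.52, edgeR adjusted p = 0.624), and 0.77 without lateral replicate 6. Prok2 ran from 114 to 769 CPM in medial hexagons (median 195) and from 14.8 to 221 CPM in lateral ones (median 96.4). The medial mean was higher in 4 of 4 sections, at a log2 fold change of 1.22 (SE 0.62, edgeR adjusted p = 0.727).

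Avp lay the other way. It ran from 11.6 to 383 CPM in medial hexagons (median 132), and was 0, 431, 443, 918, 480 and 17.97 CPM in lateral replicates 1 to 6. Hence 4 lateral hexagons exceeded every medial one, and the other 2 lay at the low end of the medial range or below it. The log2 fold change was -1.80 (SE 1.01, edgeR adjusted p = 0.742), and it was 0.52 with section and library set together. Lateral replicate 1, with the highest lateral Vip, had no Avp count, and lateral replicate 4, with the lowest Vip of the 16, had the highest Avp. Cck, which encodes cholecystokinin, had a median of 42.1 CPM in medial and 126 CPM in lateral hexagons (log2 fold change -0.91, SE 0.79, edgeR adjusted p = 0.834). Grp, the gastrin-releasing peptide gene, was scattered on both sides, from 3.41 to 386 CPM in medial and from 0 to 180 CPM in lateral hexagons, and its direction flipped in 11 alternatives. Of the 17 peptide genes listed, 8 passed the filter on low counts, 6 of them higher in medial hexagons at a median log2 fold change of 0.47. With genes detected as a covariate 4 of 8 were higher in medial hexagons (median 0.19), and without lateral replicate 6 it was 5 of 8 (median 0.48).

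**Figure D2:**
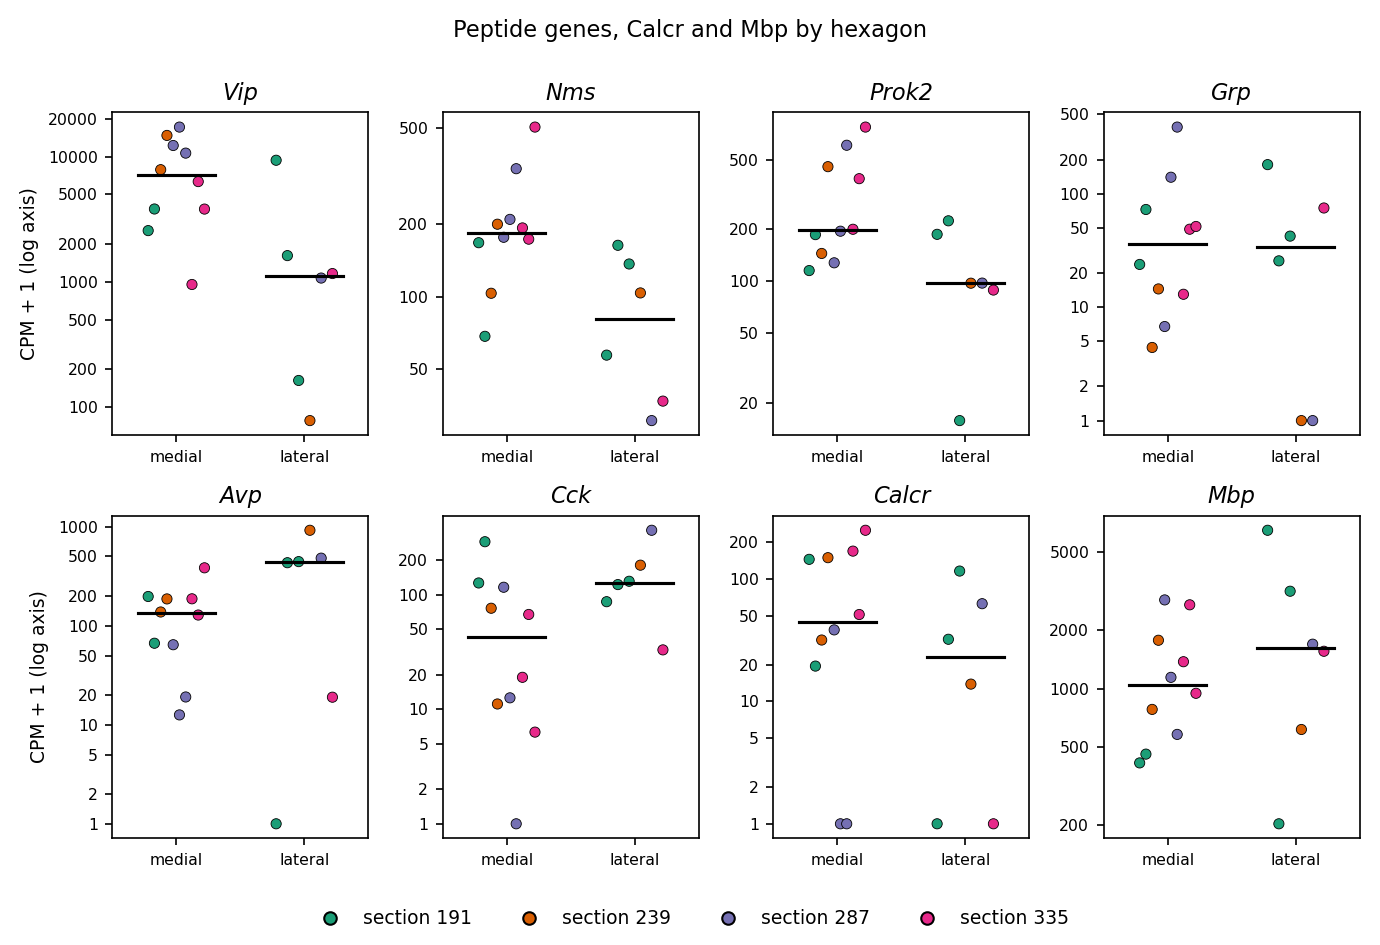
CPM + 1 on a log axis for 6 peptide genes, Calcr and Mbp in each of 10 medial and 6 lateral hexagons, coloured by section; horizontal bars are medians. The Vip median is 7111 CPM in medial and 1120 CPM in lateral hexagons, and the 2 sides overlap in every panel.

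Of 19 genes for peptide receptors and their partners, 10 passed the filter, 7 of them higher in medial hexagons, and none passed the test. With genes detected as a covariate 6 of 10 were higher in medial hexagons, and without lateral replicate 6 it was 5 of 8. Npy6r, which encodes a neuropeptide Y family receptor, ran from 2.28 to 229 CPM in medial hexagons (median 84.1) and was at 0 in 4 of 6 lateral ones (log2 fold change 2.94, SE 1.43, edgeR adjusted p = 0.691). The exceptions were lateral replicates 1 and 2, both in section 191, at 83.1 and 11.5 CPM. Grpr, the receptor gene for gastrin-releasing peptide, had a median of 17.7 CPM in medial hexagons and was at 0 in 4 of 6 lateral ones (edgeR adjusted p = 0.728). Vipr2 overlapped, from 88.7 to 688 CPM in medial and from 5.99 to 692 CPM in lateral hexagons, and its direction flipped with genes detected as a covariate, to -0.28. Avpr1a, a vasopressin receptor gene, was present in every medial hexagon, from 6.83 to 101 CPM, and ran from 0 to 6.42 CPM in lateral ones. It fell below the filter and was named after its values were seen. Of the 17101 genes with a count in these hexagons, 4 had every medial value above every lateral one (0.0234%). Besides Avpr1a these were Mcub and Rab11a, described below, and Jhy, which ran from 3.37 to 19.3 CPM in medial hexagons and was at 0 in all lateral ones. The highest lateral value of Avpr1a, 6.42 CPM, is 1 count in the shallowest library, lateral replicate 4. The separation of Avpr1a and of Jhy thus rests on values of very few counts.

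No gene passed the test between the sides. After a filter that kept the 8857 genes with at least 10 counts in at least 5 hexagons, edgeR's quasi-likelihood test called 0 (0%) at a Benjamini-Hochberg adjusted p below 0.05, and the smallest adjusted p was 0.131. At an unadjusted p below 0.05 there were 649, of which 408 were higher in medial hexagons (4.61%) and 241 higher in lateral ones (2.72%). DESeq2's Wald test with the same factors called 31 genes, 26 of them higher in medial hexagons. The edgeR count was 7 without lateral replicate 1, 1 without medial replicate 1 and 16 without section 191, which holds lateral replicates 1, 2 and 3. All 16 genes past the threshold there had passed the original filter, and 11 of them were also called by DESeq2. The median log2 fold change over all tested genes was 0.12, with 5170 genes higher in medial and 3687 higher in lateral hexagons. That median was -0.03 with genes detected as a covariate. P-values over hexagons that may share an animal are too small, for both tools.

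The gene of smallest p on the medial side was St3gal1, which encodes a sialyltransferase of the Golgi (chromosome 15, 67102875 to 67176830, GRCm38). It ran from 23.98 to 227 CPM in medial hexagons (median 102) and was 24.1, 1.64, 0, 32.1, 12.4 and 0 CPM in lateral replicates 1 to 6. Only medial replicate 8, a shallow library, lay within the lateral range. The log2 fold change was 3.51 (SE 0.64, edgeR adjusted p = 0.131), and it ran from 3.20 to 4.21 with any 1 hexagon left out. Rasl11b, which encodes a small GTPase of the Ras family, had medians of 725 CPM in medial and 152 CPM in lateral hexagons. In section 191 the sides were close, with 326 and 176 CPM in the medial hexagons against 327, 86.9 and 171 CPM in the lateral ones, and in the other sections every medial value lay above every lateral one. Ppp1r1a, which encodes an inhibitor of protein phosphatase 1, gave the same picture, at medians of 337 CPM in medial and 82.7 CPM in lateral hexagons (edgeR adjusted p = 0.345). Iqsec3, Rps6ka2, Adipor1 and Mkl2 were also among the 8 genes of smallest p on this side, with log2 fold changes from 0.72 to 1.52 and medial means higher in 4 of 4 sections and 5 of 5 library sets. All 8 were picked by p in this fit, so agreement across its sections, sets or left-out hexagons was partly fixed by that choice. It is no separate support, here and for the lateral genes below.

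The gene of smallest p on the lateral side was Syt1, which encodes the calcium sensor of fast synaptic vesicle release (chromosome 10, 108497650 to 109010982). Medial hexagons ran from 43.8 to 250 CPM (median 121), and lateral replicates 1 to 6 had 182, 164, 106, 398, 529 and 831 CPM. The 3 lateral hexagons of section 191 lay within the medial range and the other 3 above it. The log2 fold change was -1.58 (SE 0.30, edgeR adjusted p = 0.131). The lateral mean was higher in 4 of 4 sections and 5 of 5 library sets. Idh3a, a subunit of mitochondrial isocitrate dehydrogenase, averaged 158 ± 47 CPM in medial and 276 ± 119 CPM in lateral hexagons. Ndufa5, a subunit of respiratory complex I, averaged 138 ± 38 CPM in medial and 210 ± 67 CPM in lateral hexagons (edgeR adjusted p = 0.345 for Idh3a and 0.474 for Ndufa5). Tspan7, Syngr1, Copg1 and 2900097C17Rik were also among the 8 genes of smallest p on this side.

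**Figure D3:**
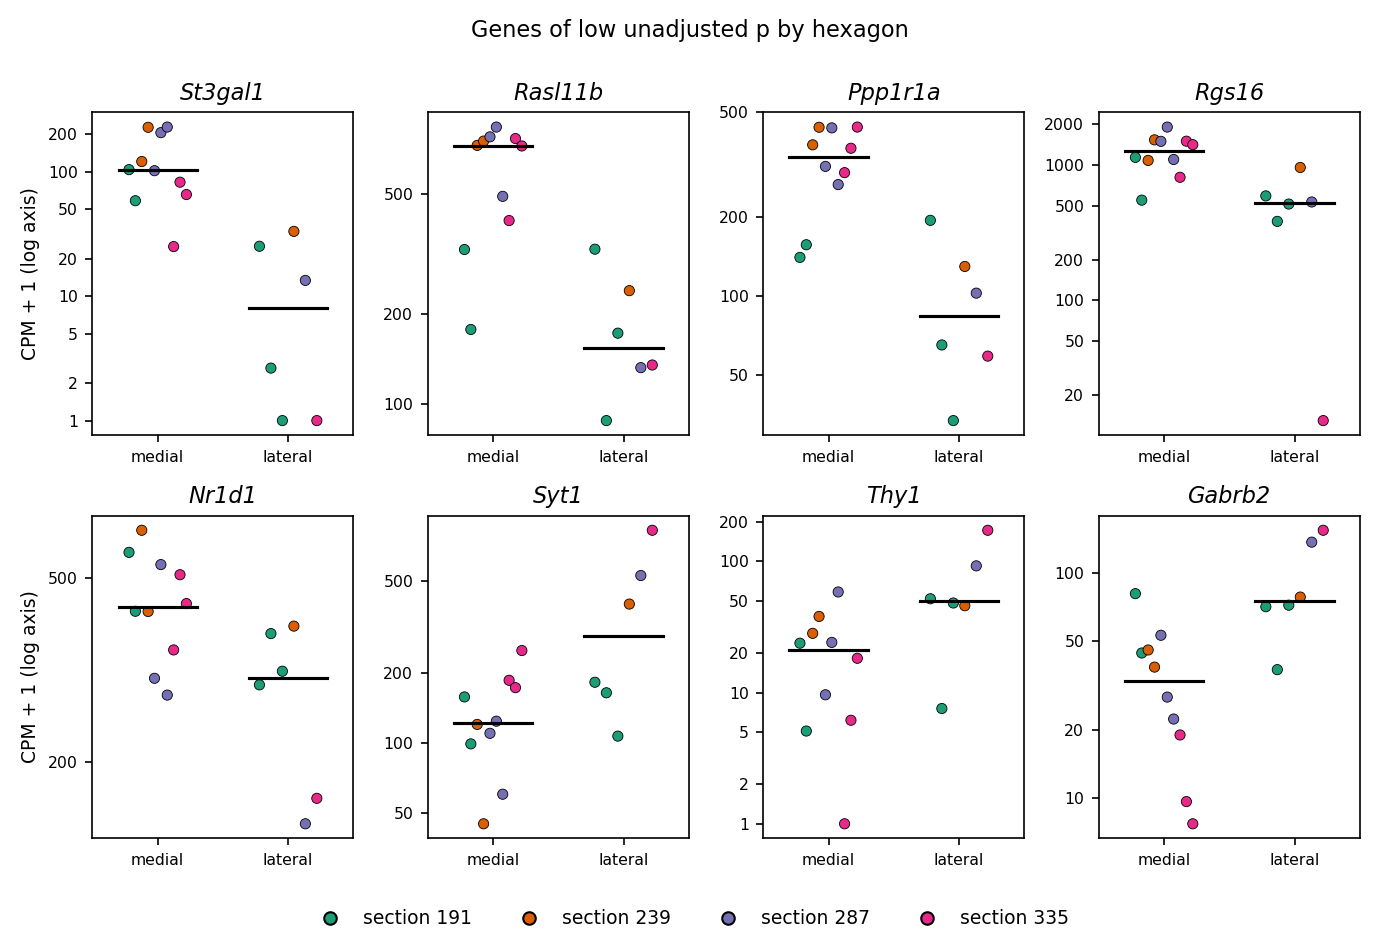
CPM + 1 on a log axis for 8 genes of low unadjusted p in each of 10 medial and 6 lateral hexagons, coloured by section; horizontal bars are medians. In section 191 (green) the sides are closer for Rasl11b and Syt1 than in section 335 (pink), and Rgs16 in lateral replicate 6 is at 11.98 CPM.

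Clock genes lay mostly on the medial side. Of 24 listed, 21 were tested, 16 higher in medial and 5 in lateral hexagons, with a median log2 fold change of 0.44 against 0.12 over all tested genes. An unadjusted p below 0.05 was reached by 5, all higher in medial hexagons: Per1, Clock, Nr1d1, Nr1d2 and Hlf (against 4.61% of all tested genes on that side). Nr1d1, which encodes the repressor REV-ERBα, ran from 278 to 631 CPM in medial hexagons (median 430) and from 146 to 391.7 CPM in lateral ones (median 302). The ranges overlapped, and the medial mean was higher in 4 of 4 sections, at a log2 fold change of 0.88 (SE 0.21, edgeR adjusted p = 0.345). Exons of Nr1d1 overlap Thra on the other strand, and the strand setting of the counting is not given in the sources used here. Hlf, which encodes a PAR-domain transcription factor, ran from 192 to 406 CPM in medial hexagons (median 271) and from 25.96 to 238 CPM in lateral ones (median 114). Per1, which encodes a repressor of the clock loop and was named after its values were seen, ran from 118 to 311 CPM in medial hexagons (median 167) and from 105 to 146 CPM in lateral ones (median 114). The medial hexagons within the lateral range of Per1 were those at 118, 123 and 129 CPM.

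Part of the clock pattern moved with 1 library and with the number of genes detected. Clock itself, which encodes the partner of BMAL1, ran from 194 to 391 CPM in medial hexagons (median 260) and from 5.99 to 308 CPM in lateral ones, the lowest being lateral replicate 6. Its log2 fold change was 1.21 (SE 0.46, edgeR adjusted p = 0.624), and 0.62 without that hexagon. The median of the clock list was 0.17 without lateral replicate 6, against 0.02 over all tested genes in that fit, with 17 of 21 genes higher in medial hexagons. With genes detected as a covariate it was 0.13, with 13 of 21 genes higher in medial hexagons, against -0.03 over all tested genes. With section and library set together it was 0.92, with 16 of 21 higher, against 0.23 over all tested genes. Per1 had a log2 fold change of 0.52 in the main fit and from 0.38 to 0.61 over 34 alternatives.

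Regulators known for their role in the SCN also lay mostly on the medial side. Of 13 listed, 8 were tested, 7 higher in medial hexagons, with a median log2 fold change of 0.62. Syt10, a synaptotagmin gene enriched in the SCN, ran from 528 to 1488 CPM in medial hexagons (median 1178) and from 89.9 to 1056 CPM in lateral ones (median 465). The 2 highest lateral values, 1056 and 1043 CPM, were both in section 191. Rgs16, which encodes a regulator of G protein signalling in the SCN, ran from 549 to 1901 CPM in medial hexagons (median 1273) and from 11.98 to 957 CPM in lateral ones (median 523). Only medial replicates 2 and 8 lay within the lateral range of Rgs16. Its log2 fold change was 1.42 (SE 0.62, edgeR adjusted p = 0.672), and 0.87 without lateral replicate 6. Zfhx3, a transcription factor gene in which a mutation shortens circadian period in mice, ran from 178 to 428 CPM in medial hexagons (median 258) and from 148 to 335 CPM in lateral ones (median 166), with the medial mean higher in 4 of 4 sections and 5 of 5 library sets. Without lateral replicate 6 the list's median was 0.65, with 6 of 8 higher in medial hexagons, and with genes detected as a covariate it was 0.58, also with 6 of 8.

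All 13 genes for peptide storage and processing were tested, 10 of them higher in medial hexagons, at a median log2 fold change of 0.31. An unadjusted p below 0.05 was reached by 3, all higher in medial hexagons, against 4.61% of all tested genes on that side. The median was 0.12 without lateral replicate 6 and 0.19 with genes detected as a covariate, both with 10 of 13 higher in medial hexagons. With section and library set together it was 0.08, with 7 of 13. Chga, which encodes a core protein of dense-core vesicles, ran from 214 to 815 CPM in medial hexagons (median 513) and from 181 to 354 CPM in lateral ones (median 216). Pcsk2, which encodes a prohormone convertase, averaged 508 ± 121 CPM in medial and 357 ± 171 CPM in lateral hexagons. Cadps2, which primes dense-core vesicles for release, averaged 577 ± 189 CPM in medial and 239 ± 223 CPM in lateral hexagons, where lateral replicate 6 had 2.00 CPM. Without that hexagon its log2 fold change was 1.15 in place of 1.80. Among 10 tested immediate early genes, 6 were higher in medial hexagons, at a median of 0.56. That was 4 of 10 with genes detected as a covariate, at a median of -0.22, and without lateral replicate 6 the median was 0.21. The orphan nuclear receptor genes Nr4a3 and Nr4a1 lay in opposite directions. Nr4a3 ran from 25.1 to 94.4 CPM in medial and from 0 to 29.5 CPM in lateral hexagons. Nr4a1 ran from 0 to 51.1 CPM in medial and from 26.6 to 166 CPM in lateral hexagons (edgeR adjusted p = 0.648 for Nr4a3 and 0.727 for Nr4a1).

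Genes of GABA and glutamate signalling lay on both sides. Gad1, a GABA-synthesising enzyme gene, averaged 1343 ± 386 CPM in medial and 1022 ± 242 CPM in lateral hexagons. The GABA-A receptor subunit genes Gabrb2 and Gabrq had the higher medians in lateral hexagons. Gabrb2 had a median of 32.0 CPM in medial and 73.9 CPM in lateral hexagons, and Gabrq had 6.58 CPM in medial and 61.0 CPM in lateral hexagons. Over the 20 GABA genes, all tested, 8 were higher in medial and 12 in lateral hexagons (median log2 fold change -0.23). Unadjusted p below 0.05 was reached by 1 on the medial side and 3 on the lateral side, against 4.61% and 2.72% of all tested genes. The median was -0.18 with genes detected as a covariate (8 of 20 higher in medial hexagons) and -0.10 without lateral replicate 6 (9 of 19). Of 15 glutamate receptor genes tested, 9 were higher in medial hexagons (median 0.06). It was 6 of 15 with genes detected as a covariate and 8 of 15 without lateral replicate 6. Grm5, a metabotropic receptor gene, ran from 66.0 to 208 CPM in medial and from 10.7 to 76.7 CPM in lateral hexagons, with 1 medial hexagon inside the lateral range (log2 fold change 1.36, SE 0.33, edgeR adjusted p = 0.345). Gria1, an AMPA receptor subunit gene, averaged 242 ± 62 CPM in medial and 357 ± 136 CPM in lateral hexagons.

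Genes of axons and nodes of Ranvier lay mostly on the lateral side. Of 20 listed, 15 were tested, 4 higher in medial and 11 in lateral hexagons, with a median log2 fold change of -0.58. An unadjusted p below 0.05 was reached by 5, all higher in lateral hexagons (2.72% of all tested genes were): Nefl, Cntnap1, Thy1, Vamp1 and Cplx1. Thy1, a surface protein gene of mature neurons and axons, ran from 0 to 57.5 CPM in medial hexagons (median 20.04) and from 6.56 to 172 CPM in lateral ones (median 49.1). Its lateral mean was higher in 4 of 4 sections and 5 of 5 library sets (log2 fold change -2.10, SE 0.69, edgeR adjusted p = 0.624), and the fold change was -1.23 without lateral replicate 6. Nefl, a neurofilament gene with exons that overlap Nefm on the other strand, was at or below 31.6 CPM in every medial hexagon and at 16.1, 14.8, 82.6, 12.8, 84.1 and 79.9 CPM in lateral replicates 1 to 6. Lateral replicates 1, 2 and 4 thus lay within the medial range of Nefl. Vamp1, a vesicle SNARE gene, had medians of 13.1 CPM in medial and 34.0 CPM in lateral hexagons. Cplx1, which encodes a complexin of vesicle release, had close medians of 81.2 CPM in medial and 89.2 CPM in lateral hexagons, with lateral replicate 6 at 859 CPM, and its medial mean was higher in 2 of 4 sections. Its log2 fold change of -1.31 was -0.25 without lateral replicate 6 and -0.07 with genes detected as a covariate. The list's median was -0.59 with that covariate, -0.41 without lateral replicate 6 and -0.35 without section 191.

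**Figure D4:**
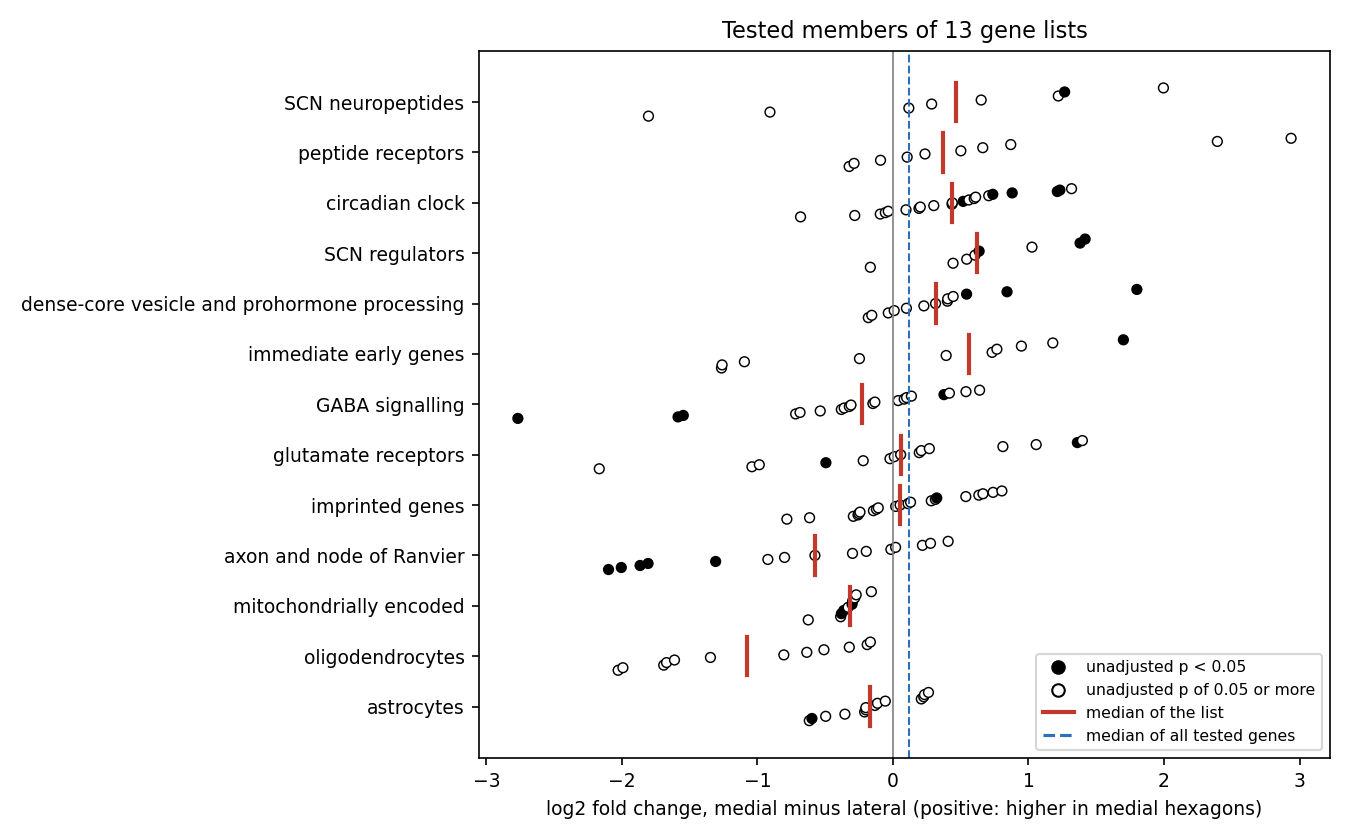
Log2 fold change (medial minus lateral) of each tested member of 13 gene lists; filled points have an unadjusted p below 0.05, red bars are list medians and the dashed line is the median of all tested genes, 0.12. The clock median is 0.44 and the axon and node median -0.58, and no point passed the adjusted threshold.

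Markers of other cells moved with the sides in part. All 12 tested oligodendrocyte genes were higher in lateral hexagons (median log2 fold change -1.08), yet none had an unadjusted p below 0.05. Their summed level ran from 728 to 13025 CPM in medial hexagons (median 1478) and from 400 to 16566 CPM in lateral ones (median 3296). The lateral sums were highest in replicates 1 and 3 of section 191, and without that section 4 of 7 tested genes were higher in medial hexagons, at a median of 0.11. All 12 stayed higher in lateral hexagons with genes detected as a covariate (median -1.87) and without lateral replicate 6 (median -1.77). All 14 astrocyte genes were tested, 4 higher in medial and 10 in lateral hexagons (median -0.17). The counts were 10 in medial and 4 in lateral hexagons with genes detected as a covariate (median 0.07), and without lateral replicate 6 there were 7 on each side (median -0.01). Summed astrocyte levels ran from 4092 to 9229 CPM in medial and from 4648 to 12471 CPM in lateral hexagons. Agt, which astrocytes express, averaged 542 ± 170 CPM in medial and 803 ± 440 CPM in lateral hexagons, the highest being lateral replicate 6 at 1639 CPM. The summed glutamatergic neuron markers did not exceed 6.14 CPM in medial and 76.7 CPM in lateral hexagons. The part of these cells in the neuronal gene differences was not tested.

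Summed vessel markers were highest in medial replicate 8, and the mural genes Vtn and Pdgfrb were low or absent in lateral hexagons. Vtn and Pdgfrb, which mark mural cells, reached 1241 and 186 CPM in medial replicate 8. Vtn was detected in 7 of 10 medial hexagons and had no count in any lateral one. Pdgfrb was at 0 in 1 medial hexagon, with a medial median of 23.2 CPM, and did not exceed 5.90 CPM in lateral hexagons. Its log2 fold change was 4.27 (SE 1.23, edgeR adjusted p = 0.613). Summed mural markers ran from 3.86 to 2099 CPM in medial hexagons (median 213) and from 2.68 to 148 CPM in lateral ones (median 45.7). Rgs5, also a tested mural gene, overlapped, from 0 to 318 CPM in medial and from 0 to 116 CPM in lateral hexagons (log2 fold change 0.22). Of 7 tested endothelial genes 5 were higher in lateral hexagons (median -0.28). Their sums had medians of 249 CPM in medial and 329 CPM in lateral hexagons, with medial replicate 8 highest at 1757 CPM. Without lateral replicate 1, 6 of 7 were higher in medial hexagons. Medial replicate 8 also held the most transcript of meningeal fibroblast genes, 17791 CPM in sum of which Ptgds made 17023 CPM, and of globin genes, 17887 CPM in sum. Other medial hexagons had at most 414 CPM of the meningeal genes, and lateral ones at most 148 CPM. Medial replicates 2 and 5 and lateral replicates 5 and 6 had 2749, 2340, 1172 and 2318 CPM of globins. The near-identical globin copies cannot be told apart in the counts.

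Of the mitochondrially encoded genes 10 were tested, and all 10 had a log2 fold change towards lateral hexagons in the fit, with a median of -0.32. Of these, mt-Co1, mt-Cytb, mt-Nd5 and mt-Nd4 had an unadjusted p below 0.05, against 2.72% of all tested genes on that side. The summed levels overlapped, from 11823 to 17862 CPM in medial hexagons (median 15130) and from 13483 to 23695 CPM in lateral ones (median 15025). Only lateral replicates 5 and 6 lay above the medial range. In section 239 the medial means of mt-Co1, mt-Cytb and mt-Nd4 were the higher ones, by 0.27, 0.26 and 0.03 on the log2 scale. mt-Co1 averaged 4806 ± 583 CPM in medial and 5967 ± 1551 CPM in lateral hexagons, where replicate 6 was the highest (log2 fold change -0.38, SE 0.11, edgeR adjusted p = 0.624). With genes detected as a covariate, 1 of the 10 was higher in medial hexagons, and without lateral replicate 6 none was (median -0.27). Imprinted genes, several of which are abundant in the hypothalamus, were divided, with 12 of 21 higher in medial hexagons and a median of 0.05. It was 8 of 21 with genes detected as a covariate (median -0.18), and without lateral replicate 6 it was 9 of 21. Peg3 averaged 3162 ± 542 CPM in medial and 2640 ± 531 CPM in lateral hexagons.

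Among the 8857 tested genes, 2 had every medial value above every lateral one (0.0226%) and 1 had every medial value below (0.0113%); these were named after their values were seen. Mcub, which encodes a subunit that restrains mitochondrial calcium uptake, ran from 54.6 to 155 CPM in medial and from 0 to 47.6 CPM in lateral hexagons. Its symbol is repeated among the gene entries, and these values are of the entry on chromosome 3, 129914960 to 129970206. Rab11a, a GTPase gene of recycling endosomes, ran from 441 to 617 CPM in medial and from 387 to 422 CPM in lateral hexagons, a log2 fold change of 0.38 (SE 0.14, edgeR adjusted p = 0.624). Cnot2, a subunit gene of the CCR4-NOT deadenylase complex, ran from 37.1 to 116 CPM in medial and from 129 to 181 CPM in lateral hexagons. Its exons overlap another gene on the other strand.

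To see whether these differences held for the Vip side alone, the 16 hexagons were fitted together with 24 medial and 7 lateral hexagons of lower dorsal-ventral coordinate from the same sections. Of 11313 genes tested, the medial to lateral difference itself differed between the Vip side and the lower hexagons for 0 (0%; smallest edgeR adjusted p 0.998, 525 at an unadjusted p below 0.05). Within the lower hexagons 0 genes passed in either direction (0%), with 764 at an unadjusted p below 0.05. Several leading genes had like values in both places. In that fit Rgs16 had a log2 fold change of 1.22 (SE 0.54) on the Vip side and 1.19 (SE 0.46) below it, and Ppp1r1a 1.33 (SE 0.59) and 1.35 (SE 0.53). Vip had 0.71 (SE 1.30) on the Vip side, against 2.00 in the fit of 16 hexagons, and 0.99 (SE 1.17) below it. Some lower hexagons were rich in Vip, up to 5947 CPM in medial and 4582 CPM in lateral ones. Clock genes were higher in the lower medial hexagons for 21 of 23 tested (median 0.51), and axon and node genes for 3 of 19 (median -0.36).

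Other genes had unlike values in the 2 places, without passing the test of the difference. Adipor1, an adiponectin receptor gene, had a log2 fold change of 1.32 (SE 0.34) on the Vip side and -0.01 (SE 0.25) below it, a difference of 1.33 (SE 0.42, edgeR adjusted p = 0.998). Avp had -1.31 (SE 0.81) on the Vip side and 0.82 (SE 0.72) below it, a difference of -2.13 (SE 1.06). St3gal1 averaged 32.0 CPM in the lower medial and 17.1 CPM in the lower lateral hexagons, with a difference between the sides of 2.06 (SE 1.13). Syt1 had -1.55 (SE 0.42) on the Vip side and -0.37 (SE 0.34) below it. These tests too rest on hexagons that may share an animal, so their p-values are too small.

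**Figure D5:**
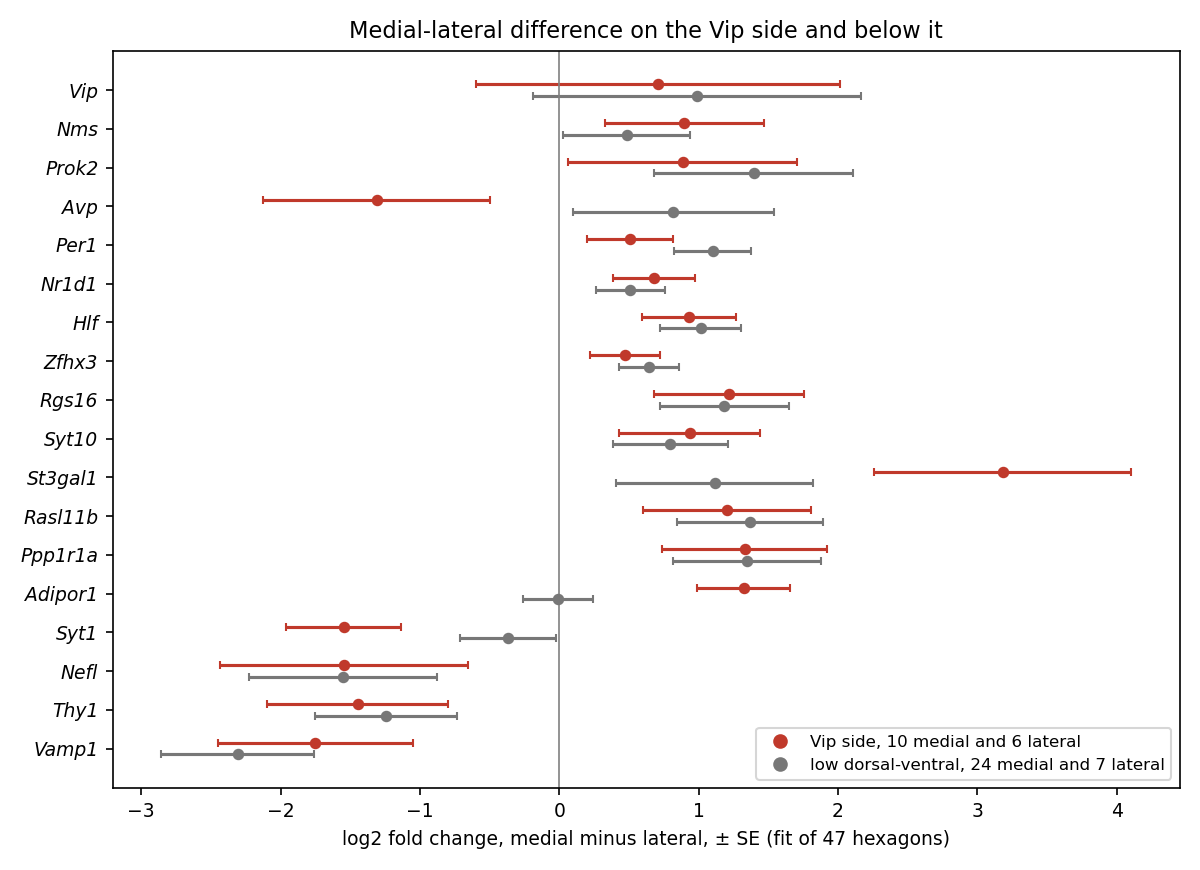
Log2 fold change (medial minus lateral) ± SE from 1 fit of 47 hexagons for 18 genes, on the Vip side (red) and at lower dorsal-ventral coordinate (grey). Rgs16 and Ppp1r1a have almost the same value in both, Adipor1 and Avp do not, and no difference passed the adjusted threshold.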

How the data were processed

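Counts per gene in 82 hexagon libraries were deposited by the authors as whole numbers, not normalised. Per the submitters' processing notes, bcl2fastq 2, STAR and the build GRCm38 were used, in roles not described. Which program counted the reads, with which strand setting and annotation, is not given in the sources used here. A deposited table of RPKM and gene length served only for gene symbols.

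Genes that had at least 10 counts in at least 5 of 16 hexagons were tested with edgeR 4.0.16 (R 4.3.3, TMM, robust quasi-likelihood), with section as a factor, 11 residual degrees of freedom and Benjamini-Hochberg adjustment. Fold changes are medial over lateral on the log2 scale. CPM uses TMM-adjusted library sizes and is not divided by gene length, so levels are compared between hexagons and not between genes. Single measures were tested by exact two-sided permutation of sides within sections (480 labelings, smallest p 0.00208), on log2(CPM + 1) for genes. DESeq2 1.42.0 was an alternative. The edgeR test was checked on simulated counts.

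Members, lists and the naming rule were chosen with earlier results of these data known. The rule named Vip, Calcr, Mbp, Avp, Grp, Nms, Prok2 and Cck, the 8 genes of smallest p in each direction with a mean of 20 CPM or more in either group, and up to 4 tested genes of smallest p per list; some genes that it named are not reported here. The lists held SCN peptides, receptors, clock genes, SCN regulators, immediate early genes, GABA genes, glutamate receptors, dense-core vesicle, axon, imprinted and mitochondrial genes, and markers of other cells. Those other lists had these counts of tested genes higher in medial hexagons: oligodendrocyte precursors 2 of 4, microglia 3 of 3, endothelial cells 2 of 7, mural cells 3 of 3, ependymal cells and tanycytes 1 of 1, meningeal fibroblasts 0 of 1, magnocellular and other hypothalamic neurons 1 of 1, and erythrocytes 4 of 4. Of these, endothelial cells had 6 of 7 without lateral replicate 1 and with library set in place of section, and erythrocytes had 0 of 4 with section and library set together. Microglia and mural cells each had 2 of 3 without lateral replicate 6, and also with genes detected as a covariate. Endothelial cells had 4 of 7 with that covariate. Replicate numbers only name hexagons. Gene positions are from GENCODE M21 on GRCm38, and 18 of 97 named genes have exons that overlap a gene on the other strand.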

Additional observations from a re-analysis of the deposited data

Results flagged for a closer look

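In 12 of 134 groups of values checked, 1 hexagon lay far from the others of its side. The cutoffs would flag about 1 in 20 groups of independent, normally spread values. The groups here share libraries and include genes picked by small p, so their number cannot be set against that rate. Lateral replicate 6 was the lowest for Clock (5.99 CPM against 89.9 to 308 in the other lateral hexagons), Rgs16 (11.98 against 382 to 957), Cadps2 (2.00 against 76.7 to 528), Nr4a3 (0 against 12.8 to 29.5) and Mcub (0 against 14.8 to 47.6). Lateral replicate 3 was the lowest for Prok2 (14.8 CPM against 87.9 to 221). Lateral replicate 5 was the highest for Cnot2 (181 CPM against 129 to 142). Medial replicate 8, a shallow library with much meningeal and globin transcript, was the lowest for Syt10 (528 CPM against 896 to 1488 in the other medial hexagons), Gad1 (630 against 1083 to 1904), Peg3 (1949 against 2710 to 3835) and Agt (228 against 450 to 891). Medial replicate 6 was the lowest for Nr4a1 (0 CPM against 10.1 to 51.1). Checks were made on log2(CPM + 1).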

How the results depend on the processing

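The count of genes past the threshold on the Vip side, 0, was 31 by DESeq2, 56 when every gene with a count was tested, 3 without the section term (Rasl11b, Ppp1r1a and St3gal1), 16 without section 191 and from 0 to 7 with 1 hexagon left out. It stayed 0 under the other alternatives. At low dorsal-ventral coordinate it was 1 without section 239 and 1 without section 287. In the fit of every gene with a count some SEs were far smaller than in the filtered fit, 0.14 against 1.29 for Vip. For such genes its p-values do not measure the spread between hexagons. Of 65 named genes, most of them picked by small p, 56 kept their sign in all alternatives in which they were tested. The alternatives refit mostly the same hexagons, so this count is no separate support. With genes detected as a covariate the log2 fold change was -0.43 for Calcr, -0.060 for Scg2, 0.00432 for Agt, -0.28 for Vipr2 and 0.10 for Ramp1. With section and library set together, an alternative added after the data were seen, it was 0.52 for Avp, -0.89 for Grp and 0.68 for Cck. In that fit the sides are compared through lateral replicates 1, 2 and 6 alone. Grp was -0.29 with library set in place of section, -0.41 over all 82 hexagons, -1.25 as a slope over 18 hexagons, -0.034 from a dorsal-ventral coordinate of 730, -0.051 without section 239 and -0.54 without section 287. As that slope Ramp1 was 0.027, and Mbp was 0.23 without section 191. With 1 hexagon left out, Calcr ran from -0.060 to 2.18 and Grp from -0.58 to 0.84. The cause of these changes was not tested. Leaving out the 2 shallow libraries, also added after the data were seen, called no gene. No paired analysis was possible because the replicate numbers follow accession order and pair no hexagons. Depth limits the values: in the shallowest library 1 count is 6.42 CPM.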
